A study of Homo sapiens with 6 samples.

Results

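The genes described here are 37 interferon-response genes outside the OAS and IFIT families, taken by name from a count table of 61228 gene names, and all 37 have a row in it. The table holds polyadenylated RNA from the line MDA-MB-231, triple-negative breast cancer cells of human origin. The KO group (n = 3 libraries) received Cas9 and guides by nucleofection, an electrical delivery method, and its treatment label lists ETV1, ETV4 and ETV5 as knocked out, although its titles name ETV4 alone. The control group (n = 3 libraries) received Cas9 with control guides, so both groups carry Cas9 and passed through nucleofection. All cells grew in droplets of collagen I under medium with serum and were freed with collagenase. All KO libraries carry c39 in their names, a tag without an explanation in the labels. A difference between the groups and a difference carried by a single clone therefore cannot be told apart. The labels do not say that a group's replicates were cultured separately, so p-values measure the spread between these libraries, which may be technical. The labels name more than 1 collagen concentration without tying them to samples. No interferon treatment is mentioned for either group.

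Type I interferons bind the receptor IFNAR1-IFNAR2 on the cell surface and activate the kinases JAK1 and TYK2. These activate the factor ISGF3, which contains STAT2 and IRF9 and binds the interferon-stimulated response element (ISRE) near its target genes. Interferon gamma acts instead mainly through gamma-activated sites (GAS). The induced proteins sense viral RNA, attach the ubiquitin-like protein ISG15 to other proteins, block virus entry or replication, and feed back on the pathway.

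Promoter windows of 9 of these genes give examples of an ISRE-type core in genes with different calls. All 9 were picked from genes that have a match, so they do not show how often it occurs. The windows come from RefSeq (GRCh38.p14), are written 5′ to 3′ on the gene's own strand, and carry every match to GAAA-NN-GAAA (N is any base), or to its reverse complement, in capitals. The first 4 belong to genes that were higher in KO, the next 4 to genes that did not pass the test, and the last to ISG20, which was lower. Positions of the first match count from the transcription start at +1.
ISG15 (chr1:1013364-1013419, plus strand, first match at -113): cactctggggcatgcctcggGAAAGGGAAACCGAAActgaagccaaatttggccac
IFI44 (chr1:78649751-78649800, plus strand, first match at -18): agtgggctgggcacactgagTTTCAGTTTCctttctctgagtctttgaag
DDX60 (chr4:168318780-168318860, minus strand, first match at -88): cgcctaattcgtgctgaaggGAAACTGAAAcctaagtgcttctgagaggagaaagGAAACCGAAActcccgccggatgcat
GBP1 (chr1:89065306-89065355, minus strand, first match at -127): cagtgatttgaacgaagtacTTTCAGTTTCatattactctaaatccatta
DDX60L (chr4:168480513-168480592, minus strand, first match at -80): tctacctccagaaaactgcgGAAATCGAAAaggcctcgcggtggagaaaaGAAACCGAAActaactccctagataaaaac
DTX3L (chr3:122564312-122564361, plus strand, first match at -6): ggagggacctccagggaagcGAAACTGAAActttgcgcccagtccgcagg
PARP14 (chr3:122680790-122680839, plus strand, first match at -29): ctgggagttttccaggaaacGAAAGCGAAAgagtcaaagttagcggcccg
IFITM3 (chr11:320866-320932, minus strand, first match at -52): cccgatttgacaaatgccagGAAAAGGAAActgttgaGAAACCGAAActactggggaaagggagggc
ISG20 (chr15:88638927-88638976, plus strand, first match at -69): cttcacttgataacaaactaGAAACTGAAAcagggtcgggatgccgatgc

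Libraries held 18042601 to 19250921 counts in KO and 18806653 to 23232770 counts in control. A count of 0 allows up to 3 counts, worth 0.128 to 0.165 CPM, counts per 1000000 counts of the library after TMM scaling, and this limit covers counting error only. Of the targeted genes, ETV1 averaged 142 ± 11.1 CPM in KO and 223 ± 13.5 CPM in control, ETV4 averaged 63.7 ± 2.03 CPM in KO and 93.9 ± 2.11 CPM in control, and ETV5 averaged 113 ± 1.23 CPM in KO and 112 ± 4.77 CPM in control (SD, n = 3 each). ETV1 and ETV4 fell (edgeR's adjusted p = 0.00125 and 6.12e-04), and ETV5 did not pass (edgeR's adjusted p = 0.932). Both replicate 3 libraries stood apart from replicates 1 and 2 of their own group. Chi-square per degree of freedom was 17.8 to 18.8 for pairs with a replicate 3 library, 5.76 between KO replicates 1 and 2, and 3.88 between control replicates 1 and 2. Of 6 epithelial and line markers, none passed edgeR's test. Their log2 fold changes (KO over control) were -0.30 for VIM, -0.13 for AXL, 0.10 for EPCAM, 0.19 for KRT8, 0.26 for KRT18 and 0.35 for CD44. For KRT8 and CD44, all KO values lay above all control values. With the replicate number as a block in the fit, VIM and AXL were lower, and KRT8, KRT18 and CD44 were higher (edgeR's adjusted p of up to 6.02e-04). EPCAM did not pass with the block (edgeR's adjusted p = 0.364). Of all tested genes, 33.9% passed with it. KRT8 and CD44 also passed with DESeq2, another test (adjusted p = 0.0448 and 0.0147). The mesenchymal filament gene VIM had 4756 to 5794 CPM in KO and 5674 to 7290 CPM in control. The estrogen receptor gene ESR1 had at most 1 count in any library, as did the progesterone receptor gene PGR. ERBB2, the HER2 gene, which the triple-negative type does not amplify, was detected at 54.5 to 57.4 CPM in KO and 58.1 to 65.0 CPM in control. Of 6 leukocyte markers, CD3E and MS4A1 were at 0 in all libraries, and the summed level of the 6 was 2.86 to 3.30 CPM in KO and 6.81 to 8.08 CPM in control. Most of the control sum was LYZ, at 5.77 to 6.25 CPM in control and 1.29 to 1.82 CPM in KO. LYZ alone of the 6 was lower in KO (edgeR's adjusted p = 3.41e-04). CD14 did not pass (edgeR's adjusted p = 0.861), and the rest had too few counts to test. For 5 fibroblast markers the sum was 11.7 to 13.9 CPM in KO and 13.2 to 13.4 CPM in control. Most of it was COL1A1, which did not pass (edgeR's adjusted p = 0.686). PDGFRB was lower in every KO library, at 2.09 to 2.65 CPM against 3.53 to 3.64 CPM. It did not pass (edgeR's adjusted p = 0.0676), though it did with the replicate block (edgeR's adjusted p = 0.0192). For 4 endothelial markers, CDH5 at 0 among them, the sum was 5.78 to 8.46 CPM in KO and 9.73 to 11 CPM in control. Of these 4, PECAM1 was lower in KO, at 3.08 to 4.83 CPM against 6.04 to 7.16 CPM (edgeR's adjusted p = 0.0250). KDR did not pass (edgeR's adjusted p = 0.598), and VWF had too few counts to test. The part of these markers in the results below was not tested. In bulk RNA, a change in the share of cells that express a gene and a change in RNA per cell cannot be told apart.

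A limited set of interferon-response genes was higher in KO. Most of it lay in these arms: ISG15 with HERC5 and HERC6, the RNA helicase genes IFIH1 and DDX60, and the neighbours IFI44 and IFI44L. GBP1 and SAMD9 stood beside them. The 9 genes were higher by log2 fold changes (KO over control) of 0.29 to 1.10, and ISG20 alone was lower. STAT2, IRF9, IRF7, the PARP9 complex with PARP14, and the IFITM genes did not pass. Of 37 genes, 34 had enough counts to be tested and 3 (MX2, RSAD2 and CMPK2) did not; 9 were higher, 1 was lower and 24 did not pass edgeR's quasi-likelihood test at an adjusted p of 0.05. As a share of those tested, 26.5% were higher and 2.94% lower, whereas 3.28% of all 14704 tested genes were higher and 6.42% lower, 9.7% in both directions together. The median log2 fold change was 0.07 over the 34 genes and 0.0040 over all tested genes. For 12 of the 34 (35.3%), all KO values lay above all control values, and for 5 (14.7%) all lay below. The shares over all tested genes were 14.9% and 16.8%. With the replicate number as a block, 10 were higher (29.4%) and 4 lower (11.8%), at backgrounds of 17.2% and 16.7%. The shares below control and lower with the block were thus under those over all tested genes. With KO replicate 2 left out, 4 genes remained higher, all among the 9, and ISG20 did not pass. With either control replicate 2 or KO replicate 1 left out, 5 were higher.

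**Figure D1:**
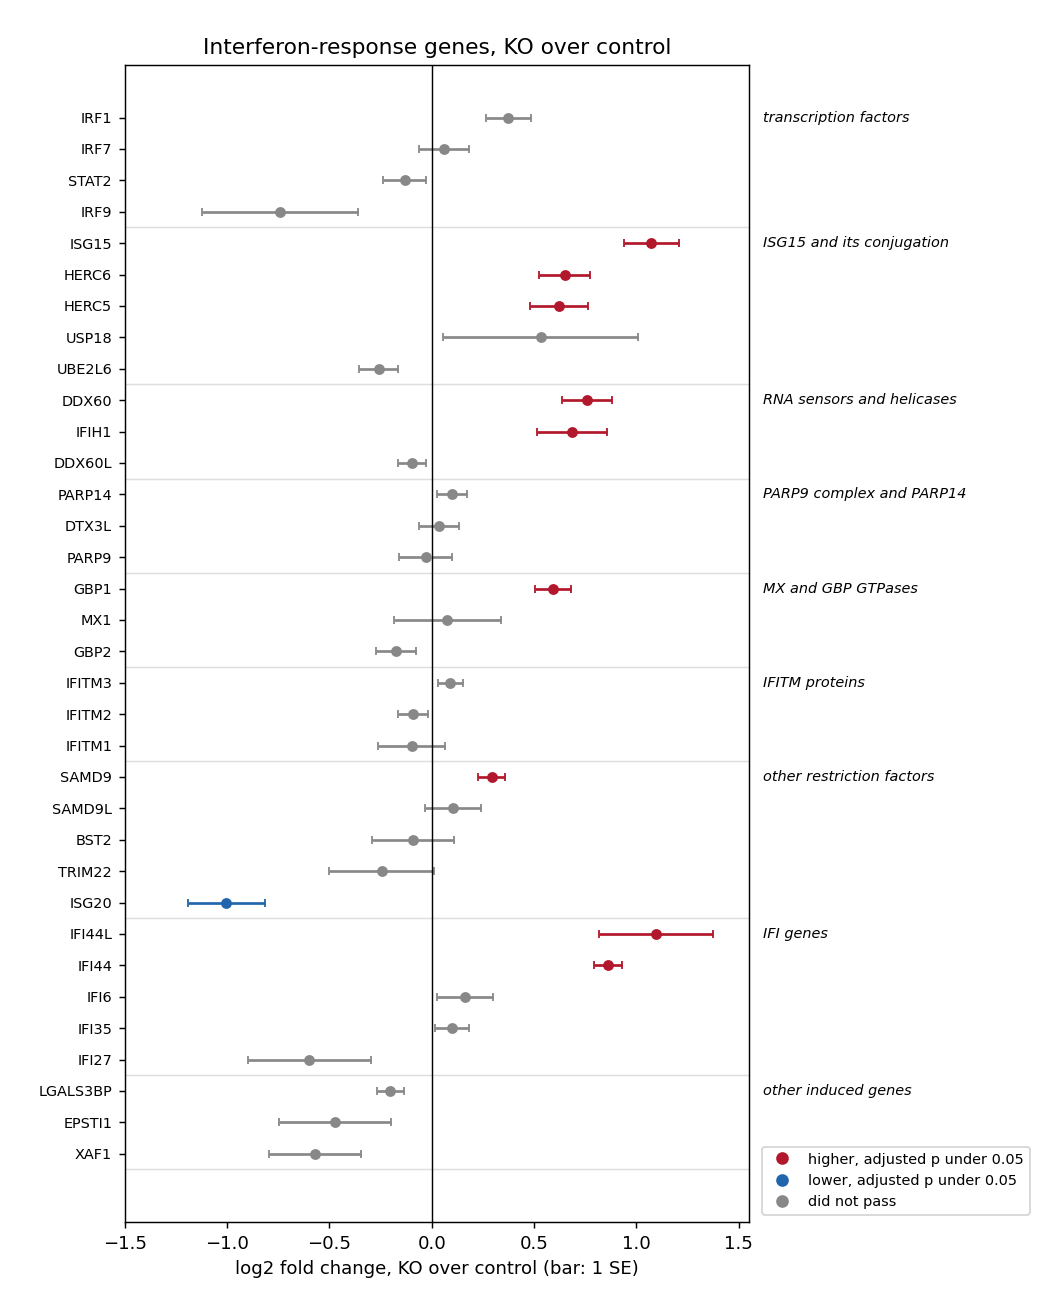
Log2 fold change, KO over control, of the 34 tested genes (horizontal axis), grouped by role down the page; points are edgeR estimates, bars are 1 SE, and colour gives the call at an adjusted p of 0.05. The 9 higher genes sit in 5 of the role groups, while the transcription factors, the PARP9 complex with PARP14, the IFITM genes and the last group have none.

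Of the interferons themselves, 7 genes were examined and none had a count. IFNB1, IFNE, IFNK, IFNL1, IFNL2, IFNL3 and IFNG were at 0 in all 6 libraries, so levels under the limit above were not detectable. Other interferon genes, such as those of the alpha family, were not examined. Among 9 receptor and kinase genes, none passed edgeR's test in either direction, none passed with the replicate block, and log2 fold changes ran from -0.22 to 0.25. IFNAR1, a subunit of the type I receptor, averaged 58.2 ± 2.59 CPM in KO and 56.8 ± 1.36 CPM in control (SD, n = 3 each), with a log2 fold change of 0.04 (SE 0.06). The kinase gene JAK1 had 104, 105 and 86.4 CPM in KO libraries and 99.4, 94.6 and 80.9 CPM in control libraries, lowest in replicate 3 of both groups.

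The ISGF3 genes STAT2 and IRF9 did not pass. STAT2, which carries the activation domain of ISGF3, had 50.4, 41.1 and 53.5 CPM in KO libraries and 49.1, 52.7 and 57.0 CPM in control libraries, so the groups overlapped. Its log2 fold change was -0.13 (SE 0.10, edgeR's adjusted p = 0.483).

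IRF9, the DNA-binding subunit of ISGF3, had only 10, 12 and 19 counts in KO libraries and 25, 15 and 39 counts in control libraries. The groups overlapped, and the log2 fold change was -0.74 (SE 0.38, edgeR's adjusted p = 0.268). In GENCODE release 29, the gene ENSG00000259529 shares 1838 exon bases with IRF9 on the same strand, 48.4% of the IRF9 exons, and 1732 bases with its upstream neighbour RNF31, a ubiquitin ligase subunit. RNF31 had 0 to 5 counts in every library, and ENSG00000259529 had 7 to 19 counts in KO and 1 to 20 counts in control. How reads in shared exons were counted is not given in the sources used here, so the level printed for IRF9 may miss part of its mRNA.

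The other interferon regulatory factors, IRF1 and IRF7, did not pass. IRF1, a factor induced directly through GAS, had 41.7, 41.3 and 37.9 CPM in KO libraries and 36.2, 30.6 and 26.5 CPM in control libraries. All KO values were higher, and replicate 3 was lowest in both groups. The log2 fold change was 0.37 (SE 0.11) and did not pass (edgeR's adjusted p = 0.0687). With the replicate block it passed (edgeR's adjusted p = 5.28e-06), as it did with DESeq2 (adjusted p = 0.0342), and over the fits that left out 1 library the edgeR's adjusted p ran from 0.0348 to 0.201. On the opposite strand, C5orf56 overlaps 22.0% of the IRF1 exon bases. IRF7, which amplifies type I interferon production, had 16.1, 14.4 and 12.8 CPM in KO libraries and 15.6, 13.3 and 12.8 CPM in control libraries, a log2 fold change of 0.06 (SE 0.12, edgeR's adjusted p = 0.818).

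**Figure D2:**
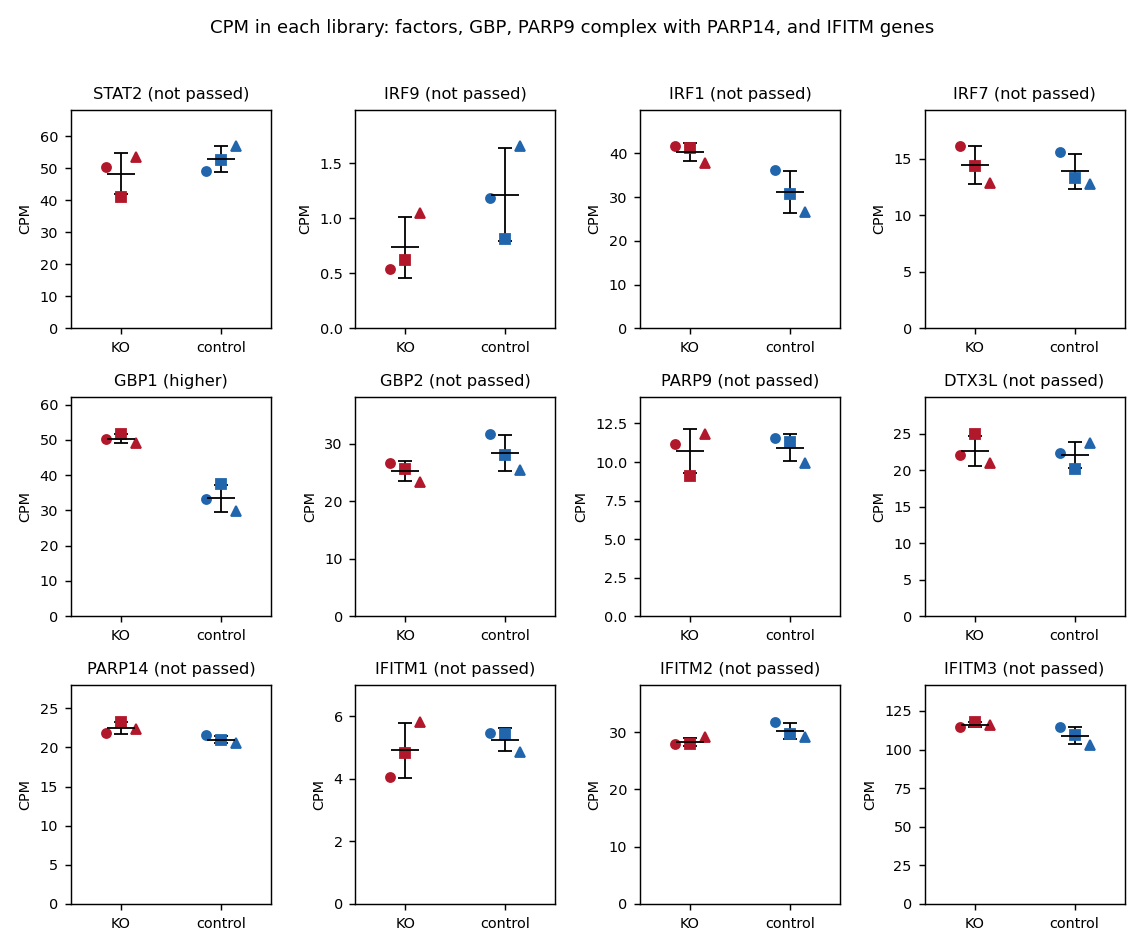
CPM (vertical axes, each from 0) in each library for the transcription factors, GBP1 and GBP2, the PARP9 complex with PARP14, and the IFITM genes, KO left and control right; circles, squares and triangles are replicates 1, 2 and 3, and bars are mean ± SD. GBP1 is separated between groups, with 49.2 to 51.7 CPM in KO and 29.7 to 37.3 CPM in control, while GBP2, PARP9, DTX3L, IFITM1 and IFITM2 overlap.

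ISG15, HERC5 and HERC6 rose, while UBE2L6 and USP18 did not pass. ISG15 (ENSG00000187608, GRCh38 chromosome 1, 1001138 to 1014540, plus strand), a ubiquitin-like protein that is attached to other proteins and also secreted, had 38.8, 40.4 and 32.5 CPM in KO libraries and 19.9, 18.9 and 14.4 CPM in control libraries. The lowest KO value was above the highest control value, and replicate 3 was lowest in each group. ISG15 was 2.10-fold higher (log2 fold change 1.07, SE 0.13, edgeR's adjusted p = 0.00168) and passed in all 6 fits with 1 library left out. HERC5 (chromosome 4, 88457117 to 88506163, plus strand), the main human ligase for ISG15, had 29.1, 29.7 and 23.5 CPM in KO libraries and 20.2, 19.0 and 14.5 CPM in control libraries. The log2 fold change was 0.62 (SE 0.14, edgeR's adjusted p = 0.0261), but it did not pass when replicate 2 of control, or replicate 1 or 2 of KO, was left out (edgeR's adjusted p of up to 0.101). Its neighbour HERC6, the main ISG15 ligase in mouse, had 9.69, 11.4 and 9.47 CPM in KO libraries and 6.05, 7.06 and 6.38 CPM in control libraries. The log2 fold change was 0.65 (SE 0.12, edgeR's adjusted p = 0.0137), and it did not pass without control replicate 1 or KO replicate 2 (edgeR's adjusted p of up to 0.0702).

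UBE2L6, the conjugating enzyme that hands ISG15 to its ligases, lay on the other side. It had 18.3, 19.1 and 18.1 CPM in KO libraries and 24.8, 21.3 and 20.2 CPM in control libraries, with no overlap. The log2 fold change of -0.26 (SE 0.10) did not pass (edgeR's adjusted p = 0.132); with the replicate block it passed (edgeR's adjusted p = 0.0103). USP18, the protease that removes ISG15 and restrains the receptor, had 21, 21 and 9 counts in KO libraries and 7, 19 and 13 counts in control libraries, and at this depth no difference was detectable (log2 fold change 0.53, SE 0.48, edgeR's adjusted p = 0.542).

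Among the RNA sensors, IFIH1 and DDX60 rose and DDX60L did not pass. IFIH1 (chromosome 2, 162267079 to 162318703, minus strand) encodes MDA5, a sensor of long double-stranded RNA, and had 6.59, 8.25 and 5.94 CPM in KO libraries and 4.96, 4.09 and 3.87 CPM in control libraries. The values did not overlap, and the log2 fold change was 0.69 (SE 0.17, edgeR's adjusted p = 0.0378). It passed in 1 of the 6 fits with a library left out, the fit without KO replicate 3 (edgeR's adjusted p from 0.0175 to 0.140 over the 6). DDX60 (chromosome 4, 168216293 to 168318807, minus strand), a helicase linked to RNA sensing, had 17.6, 15.2 and 13.7 CPM in KO libraries and 8.98, 9.97 and 8.50 CPM in control libraries. It was 1.69-fold higher (log2 fold change 0.76, SE 0.12, edgeR's adjusted p = 0.00620) and passed with any single library left out. DDX60L, its paralog 37928 bases away on the same strand, had 39.5, 39.2 and 36.4 CPM in KO libraries and 39.5, 41.7 and 41.8 CPM in control libraries (log2 fold change -0.10, SE 0.07, edgeR's adjusted p = 0.429).

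Of the GBP genes, GBP1 and GBP3 rose and GBP2 did not pass. GBP1 (chromosome 1, 89052319 to 89065360, minus strand) encodes an interferon-induced GTPase that attacks intracellular pathogens, and it had 50.1, 51.7 and 49.2 CPM in KO libraries and 33.3, 37.3 and 29.7 CPM in control libraries. The KO values lay close together and above every control value. The log2 fold change was 0.59 (SE 0.09, edgeR's adjusted p = 0.00417), and GBP1 passed with any single library left out. GBP2, 40772 bases away on the same strand, had 26.7, 25.5 and 23.3 CPM in KO libraries and 31.7, 28.1 and 25.4 CPM in control libraries, and did not pass (log2 fold change -0.17, SE 0.10, edgeR's adjusted p = 0.320). GBP3, a family member outside the 37, had 57.2, 58.9 and 58.7 CPM in KO libraries and 41.2, 43.1 and 40.6 CPM in control libraries and rose (log2 fold change 0.49, SE 0.06, edgeR's adjusted p = 0.00171). GBP4, at 1.45 ± 0.24 CPM in KO and 0.78 ± 0.16 CPM in control (SD, n = 3 each), did not pass (edgeR's adjusted p = 0.0948), though it did with the replicate block (edgeR's adjusted p = 0.0324). GBP5 had no more than 1 count in any library.

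The other dynamin-like GTPases had few counts. MX1, which traps viral nucleocapsids, had 18, 19 and 19 counts in KO libraries and 19, 17 and 24 counts in control libraries (log2 fold change 0.08, SE 0.26, edgeR's adjusted p = 0.900). MX2, active against HIV, had 2, 4 and 5 counts in KO libraries and 1, 2 and 2 counts in control libraries and was not tested.

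The PARP9 complex and PARP14 showed no difference past the test. PARP9 and DTX3L encode an ADP-ribosyltransferase family member and the ubiquitin ligase that binds it, and their exons overlap by 217 bases on opposite strands of chromosome 3. PARP9 had 11.1, 9.09 and 11.8 CPM in KO libraries and 11.5, 11.3 and 9.90 CPM in control libraries (log2 fold change -0.03, SE 0.13, edgeR's adjusted p = 0.918). DTX3L had 22.0, 25.0 and 21 CPM in KO libraries and 22.3, 20.1 and 23.8 CPM in control libraries (log2 fold change 0.04, SE 0.10, edgeR's adjusted p = 0.868). Both pairs of groups overlapped. PARP14, an ADP-ribosyltransferase encoded close by, had 21.9, 23.3 and 22.3 CPM in KO libraries and 21.6, 20.9 and 20.6 CPM in control libraries. Its KO values lay just above the control values, but the difference did not pass (log2 fold change 0.10, SE 0.07, edgeR's adjusted p = 0.454).

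None of the 3 IFITM genes passed, with or without the replicate block. IFITM proteins sit in cell and endosomal membranes and block virus entry. IFITM1 had 4.07, 4.83 and 5.83 CPM in KO libraries and 5.48, 5.44 and 4.85 CPM in control libraries (log2 fold change -0.10, SE 0.16, edgeR's adjusted p = 0.772). IFITM2 had 27.8, 28.0 and 29.2 CPM in KO libraries and 31.9, 29.6 and 29.1 CPM in control libraries (log2 fold change -0.09, SE 0.07, edgeR's adjusted p = 0.475). IFITM3 had 115, 118 and 116 CPM in KO libraries and 114, 110 and 103 CPM in control libraries, with each KO value above each control value by a small margin (log2 fold change 0.09, SE 0.06, edgeR's adjusted p = 0.387). The coding sequences of IFITM2 and IFITM3 were 93.9% identical, those of IFITM1 and IFITM3 90.1%, and GENCODE release 29 places 351 exon bases in both IFITM1 and IFITM2. The division of reads among the 3 genes is therefore uncertain.

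IFI44 gave the smallest adjusted p of the 37 genes. IFI44 (chromosome 1, 78649796 to 78664078, plus strand), a cytoplasmic protein induced by type I interferon, had 30.3, 30.1 and 31.0 CPM in KO libraries and 17.1, 16.6 and 16.5 CPM in control libraries. It was 1.82-fold higher (log2 fold change 0.86, SE 0.07, edgeR's adjusted p = 2.43e-04), and leaving out any single library kept the log2 fold change between 0.85 and 0.88. IFI44L, its paralog 3651 bases upstream, had 67, 46 and 63 counts in KO libraries and 29, 19 and 46 counts in control libraries. In CPM these were 3.59, 2.39 and 3.47 in KO and 1.37, 1.02 and 1.96 in control, a log2 fold change of 1.10 (SE 0.28, edgeR's adjusted p = 0.0409). IFI44L passed in 1 of the 6 fits with a library left out, the fit without control replicate 3 (edgeR's adjusted p of up to 0.141 otherwise).

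The remaining IFI genes did not pass. IFI6, an inhibitor of apoptosis and flavivirus replication, averaged 10.7 ± 1.18 CPM in KO and 9.58 ± 1.36 CPM in control (SD, n = 3 each; log2 fold change 0.16, SE 0.14). IFI35, a leucine zipper protein, had 20.6, 22.0 and 22.1 CPM in KO libraries and 20.6, 21.1 and 18.7 CPM in control libraries (log2 fold change 0.10, SE 0.08). IFI27, a mitochondrial protein, had 27, 26 and 13 counts in KO libraries and 42, 34 and 36 counts in control libraries. All its KO values were below all control values, yet the log2 fold change of -0.60 (SE 0.30) did not pass (edgeR's adjusted p = 0.259).

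**Figure D3:**
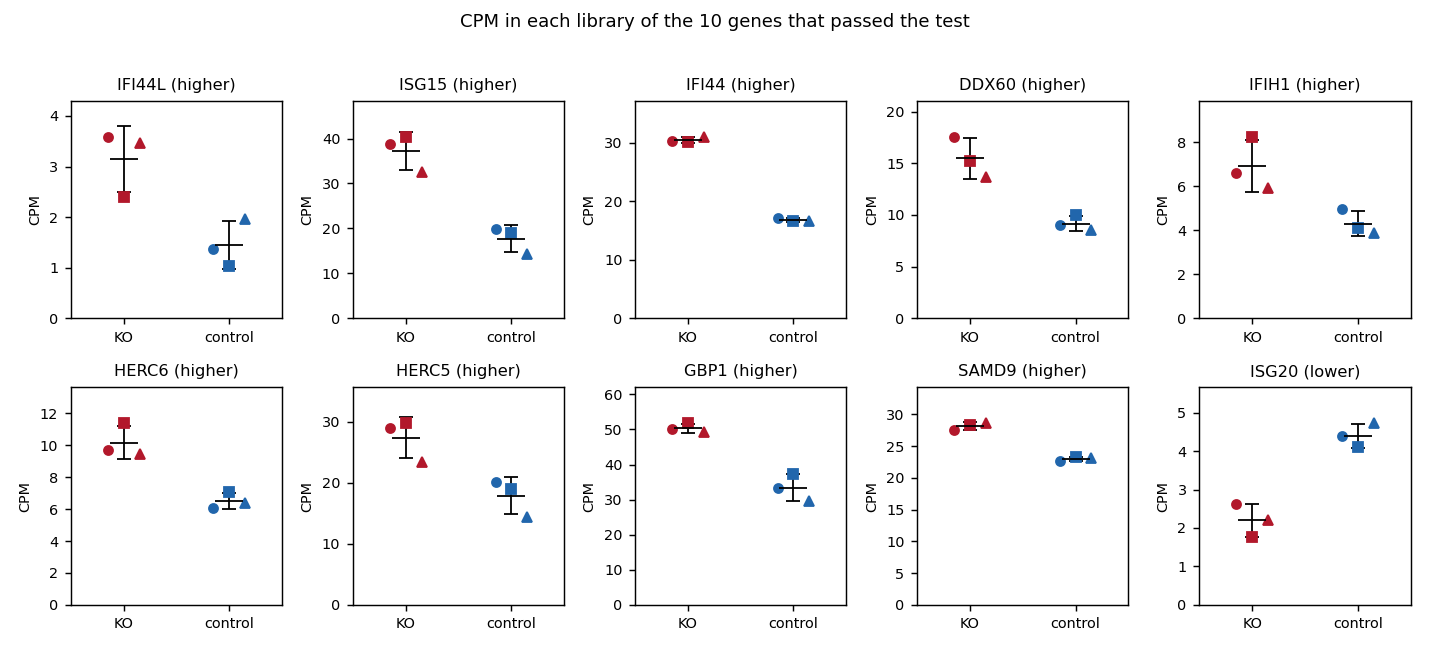
CPM (vertical axes, each from 0) in each library of the 10 genes that passed edgeR's test, KO left and control right; circles, squares and triangles are replicates 1, 2 and 3, and bars are mean ± SD. In all 10 panels the KO and control values do not overlap; IFI44 and SAMD9 have the tightest groups, and ISG20 is the panel with KO below control.

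Restriction factors of other kinds went in different directions. SAMD9 (chromosome 7, 93099513 to 93118023, minus strand), an antiviral factor that limits poxviruses, had 27.5, 28.4 and 28.6 CPM in KO libraries and 22.6, 23.2 and 23.2 CPM in control libraries. The difference was small and even (log2 fold change 0.29, SE 0.07, edgeR's adjusted p = 0.0289). It lay close to the threshold: SAMD9 did not pass with DESeq2 (adjusted p = 0.0504), without the low-count filter (edgeR's adjusted p = 0.0516) or in 5 of the 6 fits with a library left out (edgeR's adjusted p of up to 0.131). SAMD9L, its paralog 12032 bases away, had 10.1, 9.24 and 9.91 CPM in KO libraries and 9.78, 10.1 and 7.44 CPM in control libraries (log2 fold change 0.10, SE 0.14, edgeR's adjusted p = 0.694).

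ISG20 (chromosome 15, 88636153 to 88656483, plus strand), an exonuclease that degrades single-stranded RNA, was the gene that fell. It had 49, 34 and 40 counts in KO libraries and 93, 76 and 111 counts in control libraries, or 2.62, 1.77 and 2.2 CPM in KO and 4.40, 4.09 and 4.72 CPM in control. Every KO value was lower, and the log2 fold change was -1.0 (SE 0.19, edgeR's adjusted p = 0.0127). ISG20 did not pass without control replicate 1 (edgeR's adjusted p = 0.0538) or without KO replicate 2 (edgeR's adjusted p = 0.0528).

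BST2 encodes tetherin, which holds budding virus at the cell surface. It had 80.8, 82.9 and 123 CPM in KO libraries and 91.4, 89.1 and 125 CPM in control libraries, highest in replicate 3 of both groups. The groups overlapped (log2 fold change -0.09, SE 0.20, edgeR's adjusted p = 0.833). TRIM22, a ubiquitin ligase with antiviral activity, had 20, 20 and 24 counts in KO libraries and 32, 21 and 33 counts in control libraries and did not pass (log2 fold change -0.24, SE 0.26). RSAD2, the viperin gene, had 3, 2 and 0 counts in KO libraries and 0, 1 and 0 counts in control libraries. CMPK2, a mitochondrial nucleotide kinase encoded beside RSAD2, had 1 count in KO replicate 3 and 0 in the other 5 libraries. Both rows were too low to test.

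The last 3 genes all had negative log2 fold changes and did not pass. XAF1, a pro-apoptotic partner of XIAP, had 47, 32 and 41 counts in KO libraries and 79, 49 and 74 counts in control libraries, all lower in KO (log2 fold change -0.57, SE 0.22, edgeR's adjusted p = 0.154). On the opposite strand PRAL overlaps 38.3% of the XAF1 exon bases, with 0 counts in KO and 0 to 3 counts in control. LGALS3BP, a secreted galectin-binding glycoprotein, had 401, 394 and 375 CPM in KO libraries and 458, 467 and 421 CPM in control libraries, again with no overlap (log2 fold change -0.20, SE 0.07, edgeR's adjusted p = 0.0915). With the replicate block both passed (edgeR's adjusted p = 0.0345 for XAF1 and 1.37e-06 for LGALS3BP). EPSTI1, a gene first found as induced in stromal co-culture, had 28, 38 and 18 counts in KO libraries and 49, 36 and 46 counts in control libraries (log2 fold change -0.47, SE 0.27, edgeR's adjusted p = 0.332).

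Ratios between paralogs within a library do not depend on library scaling. The count ratio of GBP1 to GBP2 was 1.88, 2.02 and 2.11 in KO libraries and 1.05, 1.33 and 1.17 in control libraries. For DDX60 to DDX60L it was 0.445, 0.388 and 0.375 in KO libraries and 0.228, 0.239 and 0.203 in control libraries. Neither pair of ranges overlapped, and the log2 ratio was higher in KO by 0.77 for the GBP pair and by 0.85 for the DDX60 pair. A two-sided exact permutation test gave p = 0.1 for each, the smallest that 3 libraries against 3 can give, and an adjusted p of 0.267 over the 8 paralog pairs compared. IFITM2 to IFITM3 also did not overlap, at 0.243, 0.237 and 0.252 in KO libraries and 0.279, 0.270 and 0.282 in control libraries (exact permutation p = 0.1, adjusted p = 0.267). The HERC5 to HERC6 ratio overlapped, at 2.48 to 3.00 in KO libraries and 2.27 to 3.34 in control libraries. SAMD9 to SAMD9L, likewise a higher gene over a paralog that did not pass, overlapped (log2 difference 0.18, exact permutation p = 0.4, adjusted p = 0.64). Also overlapping were IFI44 to IFI44L (log2 difference -0.28), IFITM1 to IFITM2 (-0.02) and IFITM1 to IFITM3 (-0.20). All these ratios come from the same counts as the calls above and are not a separate measurement. Coding identity was 82.4% for GBP1 and GBP2 and 78.8% for DDX60 and DDX60L, with longest identical runs of 65 and 84 bases.

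Across the gene levels per length, the genes that rose did not share a level. Dividing mean CPM by the length of merged exons in GENCODE release 29, LGALS3BP was at 109 CPM per kilobase in KO and 125 in control, BST2 at 85.4 in KO and 90.9 in control, and IFITM3 at 86.2 in KO and 80.9 in control. ISG15 was at 39.6 CPM per kilobase in KO and 18.9 in control, IFI44 at 14.9 in KO and 8.22 in control, GBP1 at 10.1 in KO and 6.70 in control, and IFIH1 at 1.36 in KO and 0.843 in control. IFI44L, at 0.307 CPM per kilobase in KO and 0.142 in control, was the lowest of the genes that rose.

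ISRE-type matches were more frequent among these genes than over all promoter windows. RefSeq promoter windows, from 250 bases before the start to 50 after it, were found for 31 of the 37 genes, and not for IRF7, USP18, MX2, GBP2, IFITM2 and TRIM22. A match to GAAA-NN-GAAA on either strand stood in 20 of the 31 (64.5%) and in 3.57% of all 35116 windows. Overlapping matches, as in ISG15, were counted once per gene. The match was present in 8 of the 9 genes that were higher (88.9%, all but HERC6) and in ISG20. It stood in 11 of 19 that did not pass (57.9%), among them DTX3L, PARP14, IFITM1, IFITM3 and BST2. These shares rest on few genes, and a difference between calls was not tested. Neither RSAD2 nor CMPK2, which were not tested, had a match. A match to the GAS-type core TTCNNNGAA, which reads the same on both strands, stood in 9 of the 31 windows (29%) and in 7.66% of all windows. Among genes with a GAS-type match, DDX60 was higher, and the other 8, IRF1 and IRF9 included, did not pass. A match describes letters in the window and does not show that a factor binds there.

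**Figure D4:**
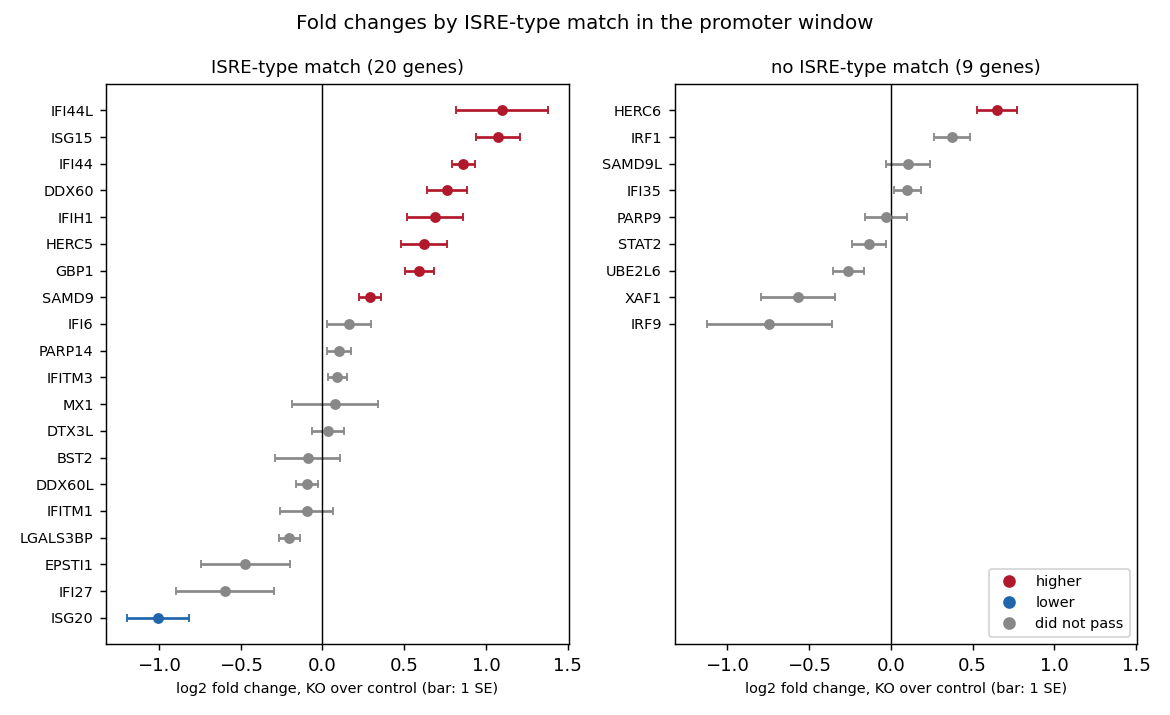
Log2 fold change, KO over control (horizontal axes, bars 1 SE), of tested genes with a RefSeq promoter window, with an ISRE-type match in the left panel and none in the right panel; colour gives the call. The left panel runs from ISG20 at -1.0 to IFI44L at 1.10, and holds 8 of the 9 higher genes as well as 11 genes that did not pass.

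Other genes of the pathway were measured for comparison. In the OAS and IFIT families, 4 of 8 (50%) were higher, OASL, IFIT1, IFIT2 and IFIT3, and none lower. The median log2 fold change was 0.35. Over all tested genes, 3.28% were higher and 6.42% lower. Of 5 negative regulators, none rose and 1 (20%) fell, beside the same shares over all genes. It was SOCS3, an inhibitor of receptor-bound kinases, with 37.7, 39.3 and 43.9 CPM in KO libraries and 52.7, 52.5 and 54.7 CPM in control libraries (log2 fold change -0.40, SE 0.07, edgeR's adjusted p = 0.0114). SOCS3 did not pass without KO replicate 1 or KO replicate 2. SOCS1, an inhibitor of JAK kinases, had 1.77, 1.97 and 1.82 CPM in KO libraries and 1.23, 0.86 and 0.89 CPM in control libraries, and did not pass (edgeR's adjusted p = 0.0588), though it did with the replicate block (edgeR's adjusted p = 0.0155). With the block, 3 of these 5 were higher and 1 lower, or 60% and 20%, against 17.2% and 16.7% of all genes.

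Of 14 genes for nucleic acid sensing, 12 were tested, 1 rose and 1 fell, with a median log2 fold change of 0.07. Each call is 8.33% of those tested, near the 3.28% higher and 6.42% lower over all genes. SAMHD1, which depletes nucleotides that viruses need, rose (log2 fold change 0.39, SE 0.05, edgeR's adjusted p = 0.00310), with 90.3 to 93.8 CPM in KO and 69.0 to 71.6 CPM in control. STING1, the adaptor for cytosolic DNA, fell (log2 fold change -0.39, SE 0.07, edgeR's adjusted p = 0.0102), with 23.4 to 25.6 CPM in KO and 31.4 to 32.6 CPM in control; it did not pass without control replicate 1 or KO replicate 2 (edgeR's adjusted p of up to 0.0582). CGAS, the DNA sensor upstream of it, had 53.3, 56.0 and 59.2 CPM in KO libraries and 47.3, 42.5 and 50.8 CPM in control libraries and did not pass (edgeR's adjusted p = 0.0839). It passed with the replicate block (edgeR's adjusted p = 1.65e-04) and without the low-count filter (edgeR's adjusted p = 0.0366). With the block, 3 of the 12 were higher and 1 lower, or 25% and 8.33%, against 17.2% and 16.7% of all genes.

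Among 12 other genes of the interferon-gamma type, 6 were tested, 2 rose and 1 fell. These are 33.3% and 16.7% of those tested, against 3.28% higher and 6.42% lower over all genes. GBP3 and the apolipoprotein gene APOL1 (log2 fold change 0.53, SE 0.11, edgeR's adjusted p = 0.0231) rose. CIITA, the master regulator of MHC class II genes, fell (log2 fold change -0.52, SE 0.12, edgeR's adjusted p = 0.0298), with 6.28 to 8.09 CPM in KO and 10.2 to 10.5 CPM in control. APOL1 and CIITA each passed in 1 of the 6 fits with a library left out, the fit without KO replicate 3 (edgeR's adjusted p of up to 0.0988 for APOL1 and 0.111 for CIITA). With the block, 4 of the 6 were higher and 1 lower, or 66.7% and 16.7%, beside the same 17.2% and 16.7% of all genes. CXCL9 and CXCL10 had 0 counts in every library. Of 14 other interferon-induced PARP, TRIM and SP genes, SP110, a nuclear body protein, rose (log2 fold change 0.41, SE 0.10, edgeR's adjusted p = 0.0311), as did ZC3HAV1, the zinc-finger antiviral protein (log2 fold change 0.31, SE 0.08, edgeR's adjusted p = 0.0386). The other 12 did not pass, PARP10, PARP11 and PARP12 among them. Thus 14.3% of the 14 were higher and none lower, beside 3.28% and 6.42% over all genes. With a library left out, ZC3HAV1 passed solely without KO replicate 3 (edgeR's adjusted p of up to 0.123), and SP110 without either replicate 3 library (edgeR's adjusted p of up to 0.136). With the block, 4 of the 14 were higher and 1 lower, or 28.6% and 7.14%, again beside 17.2% and 16.7% of all genes.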

How the data were processed

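The authors deposited raw read counts per gene name for 6 libraries. Per the labels' protocols these were stranded poly(A) libraries; FastQC 0.11.9, STAR 2.7.9a and build hg38, then featureCounts, and also R 4.1.1, are named per the submitters' processing notes. The annotation, the strand setting and how shared or multi-mapping reads were treated: not given in the sources used here. Groups came from the treatment label and columns from the library names.

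Genes were kept with edgeR's filterByExpr (14704), scaled by TMM, and tested with edgeR's quasi-likelihood test (edgeR 4.0.16, R 4.3.3), with group as the only term and Benjamini-Hochberg adjustment over all tested genes and a threshold of 0.05. SE is the log2 fold change divided by the root of F. Alternatives were RLE scaling, no filter, DESeq2 1.42.0, a replicate block, each library left out, and both replicate 3 libraries left out. Same-numbered libraries of the groups deviated together (correlations across 10032 genes of 0.55, 0.45 and 0.83), which is why block values stand beside results. KO replicate 2 with control replicate 1 (0.59) and KO replicate 1 with control replicate 2 (0.58) correlated as much or more, so the data set apart replicate 3 alone, and no label states a pairing.

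All 37 genes are named, and up to 3 other pathway genes per list by smallest adjusted p. IFNAR1, JAK1, GBP4, GBP5, CXCL9, CXCL10, PARP10, PARP11, PARP12, IFIT3, RNF31 and ENSG00000259529 were chosen after their values were seen. The genes, lists and paralog pairs were chosen with earlier results of these data known. Positions are from GENCODE release 29 (GRCh38), in which all 37 were found, which need not be the annotation behind the counts. Coding sequences were aligned with Biopython 1.88; proteins were not compared. One further pathway gene from these lists is not reported here.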

Additional observations from a re-analysis of the deposited data

How the results depend on the processing

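The calls depended on single libraries. With 1 library left out, 4 to 10 of the 37 genes passed (4 to 9 higher, 0 to 1 lower), and 572 to 1741 genes over the whole table. ISG15, DDX60, GBP1 and IFI44 passed in all 6 such fits. By role these fits gave 0 to 1 transcription factors, 1 to 3 ISG15-conjugation genes, 1 to 2 RNA sensors, 0 to 2 other restriction factors and 1 to 2 IFI genes; in the lists outside the 37 they gave 0 to 2 for negative regulators, 1 to 3 for nucleic acid sensing, 1 to 3 for gamma-type targets and 0 to 2 for PARP, TRIM and SP genes. These counts by role have no share over all tested genes beside them, which was 9.7% in the main fit. With the replicate block, 4 of the 37 were lower (UBE2L6, XAF1 and LGALS3BP added), and 4983 genes passed in all, 33.9% of those tested. Calls in either direction were 1 of 4 transcription factors (IRF1), 2 of 3 in the last group and 4 of 5 negative regulators. They were 4 of 12 for sensing, 5 of 6 for gamma-type targets and 5 of 14 for PARP, TRIM and SP genes. The counts for sensing and for PARP, TRIM and SP genes are near the share over all genes. Without both replicate 3 libraries, 3 of the 37 were lower and 3754 genes passed in all. Calls were then 1, 1, 3 and 4 in the first 4 of those groups and 6 in the PARP, TRIM and SP list. These counts likewise have no share over all tested genes beside them. With DESeq2, and likewise without the low-count filter, IRF1 passed (1 transcription factor) and SAMD9 did not (1 other restriction factor). Genes that changed sign did not pass in any of those fits: with 1 library left out ETV5 ran from -0.018 to 0.043, IRF7 from -0.016 to 0.16, PARP9 from -0.10 to 0.081, DTX3L from -0.035 to 0.11, IFITM1 from -0.22 to 0.030, BST2 from -0.30 to 0.080 and SAMD9L from -0.026 to 0.18, and SAMD9L was -0.036 without both replicate 3 libraries (log2). The cause was not tested. Depth limits IRF9, USP18, MX1, MX2, RSAD2, CMPK2 and TRIM22, with at most 39 counts in each library.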
